A study of Rattus norvegicus with 6 samples.

Results

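The acute-phase protein genes described here are Hp, Orm1, Crp, Lbp, Hpx, Cp, Itih3, Itih4, A2m and Apcs, chosen by symbol for what their proteins are known to do. Their response to diet was not the ground for the choice, but earlier results of these data were known when it was made. All 10 were found, each on 1 of the 32158 loci with a symbol among the 33022 loci in the deposited data, and 9 of the 10 averaged 1 FPKM or more over the 6 libraries, where FPKM is the number of fragments per kilobase of transcript, scaled to the fragments mapped in a library. A2m did not. Livers came from male obesity-prone Sprague Dawley rats that weighed 160 to 190 g at the start and ate either a control diet (CD) or a Western diet (WD), which is rich in milk fat and sucrose and holds added cholesterol, for 2 weeks. By the study's account these rats were then fasted overnight and refed their own diet shortly before the liver was taken, and their ages were not given in the sources used here. For each diet there was 1 library of total RNA, 1 of mRNAs with up to 3 ribosomes (the light part of a sucrose gradient) and 1 of mRNAs with at least 4 (the heavy part), and each library held RNA pooled from 3 rats. There were therefore no replicates, no difference between diets could be tested, and every ratio compares a pair of pooled libraries.

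The acute-phase response is the change that liver makes in the plasma proteins it secretes when cytokines of the interleukin-6 and interleukin-1 families reach the hepatocyte. Proteins that become more abundant are called positive acute-phase proteins, and those that become less abundant, such as albumin and transthyretin, are called negative. In the rat, A2m (alpha-2-macroglobulin, a broad proteinase inhibitor) and Orm1 (alpha-1-acid glycoprotein, a lipocalin that carries lipophilic ligands) are strongly induced, whereas Crp is made in quantity by healthy liver. Because the proteins are secreted, their mRNAs are translated on ribosomes at the endoplasmic reticulum.

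Depth was read from the data, since the FPKM values of low genes were whole multiples of what 1 fragment was worth in each library. The deposited values were normalized between libraries, so this relative depth includes that scaling and is not a count of mapped fragments. The CD heavy fraction was the shallowest library, and relative to it the depth of the other fractions and of total RNA lay between 1.02 and 1.57, except in the WD light fraction at 2.34. Fragment numbers were found in all 6 libraries for 5 of the 10 genes, namely Hp, Hpx, Apcs, Orm1 and Lbp. For these a 95% interval of a ratio is given, which is exact (Clopper-Pearson, or the conditional odds ratio where 4 libraries enter), covers counting error only and compares libraries, not diets. No molecular identifiers were described, so amplified copies of a molecule may be among them and the intervals may be too narrow. The wider bounds that the authors' software gave for each FPKM value overlapped between WD and CD in all 27 comparisons of 9 genes in 3 kinds of RNA. They also overlapped in all 18 heavy against light pairs. Of the 54 values of these genes 35 had a lower bound of 0, so much of this overlap was fixed in advance and does not compare the diets. The 6 hepatocyte marker genes were present in all 6 libraries, with summed levels between 32932 and 117166 FPKM. The 5 neutrophil markers were all listed at 0 in both total RNA libraries, which does not show that they were absent. In the CD light fraction Mpo measured 0.728 FPKM and Mmp8 0.571 FPKM.

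The 9 acute-phase mRNAs made up 2.21% of the FPKM of all loci with a symbol in CD total RNA and 2.39% in WD total RNA. Their share was 1.21% (CD) and 0.953% (WD) in the light fraction and 2.99% (CD) and 3.10% (WD) in the heavy fraction. By FPKM, which is a level per transcript length, the order in CD total RNA was Hp, Hpx, Crp, Itih4, Cp, Apcs, Itih3, Orm1 and Lbp, and it was the same in WD total RNA. Hp ranked 15 among the 10201 loci compared in CD total RNA, and Lbp ranked 1237. Hp and Hpx exchanged places in the CD heavy fraction. In the light fraction Itih3 stood below Orm1 in CD and above Apcs in WD.

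**Figure D1:**
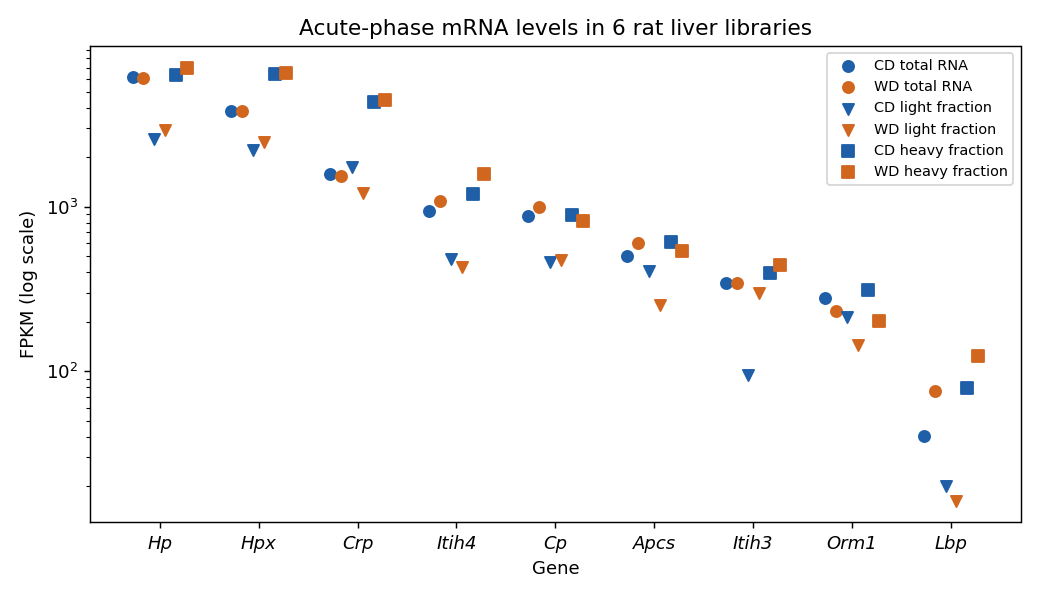
FPKM (log scale) of 9 acute-phase genes in the 6 libraries, with CD in blue and WD in orange, and circles for total RNA, triangles for the light fraction and squares for the heavy fraction. Each point is 1 pooled library, so there are no error bars. The light fraction lies lowest for every gene but Crp in CD, and Lbp is the lowest gene in every library.

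Hp, Hpx and Cp encode plasma proteins that bind haemoglobin, haem or metal. Hp (haptoglobin, chromosome 19, 42097994 to 42100804 in Rnor_6.0), which captures free haemoglobin, measured 6171 FPKM in CD and 6036 FPKM in WD total RNA, 2592 and 2937 FPKM in the light fraction, and 6321 and 7019 FPKM in the heavy fraction. These values rest on between 1983 and 6907 fragments per library. The level in total RNA was nearly the same in both diets, with a WD to CD ratio of 0.978 (interval 0.945 to 1.01). Hpx (hemopexin, chromosome 1, 170423482 to 170431073), which binds free haem, measured 3817 and 3797 FPKM in total RNA, 2228 and 2482 FPKM in the light fraction, and 6433 and 6484 FPKM in the heavy fraction. Its WD to CD ratio was 0.995 (0.959 to 1.03) in total RNA and 1.01 (0.974 to 1.04) in the heavy fraction. In the light fraction the ratio was 1.13 for Hp and 1.11 for Hpx, and with equal library sums both directions turned, to log2 ratios of -0.17 and -0.20. Cp (ceruloplasmin, the copper-carrying ferroxidase of plasma, chromosome 2, 104744460 to 104830898) measured 883 and 998 FPKM in total RNA, 459 and 473 FPKM in the light fraction, and 897 and 821 FPKM in the heavy fraction. No ratio of Hp, Hpx or Cp between diets reached 1.5 or 0.75 in any of the 3 kinds of RNA.

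The pentraxins Crp and Apcs are ring-shaped pattern-recognition proteins whose genes lie on the same chromosome. Crp (C-reactive protein, chromosome 13, 91054973 to 91093713) measured 1592 FPKM in CD and 1536 FPKM in WD total RNA, 1734 and 1217 FPKM in the light fraction, and 4322 and 4459.55 FPKM in the heavy fraction. Both CD fractions were above CD total RNA. Crp made up 10.9% of the summed FPKM of the acute-phase genes in CD total RNA but 21.0% in heavy and 21.1% in light fraction RNA of the same diet, and such shares within a library do not depend on how libraries are scaled. Apcs (serum amyloid P component, chromosome 13, 91426478 to 91427575) measured 504 and 599 FPKM in total RNA, 409 and 254 FPKM in the light fraction, and 612 and 538 FPKM in the heavy fraction. The WD to CD ratio of Apcs was 1.19 (1.05 to 1.35, 453 and 515 fragments) in total RNA and 0.621 (0.526 to 0.734, 251 and 339 fragments) in the light fraction. The light fraction was thus lower in WD for both pentraxins, with a ratio of 0.702 for Crp.

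Lbp (lipopolysaccharide-binding protein, which hands bacterial lipopolysaccharide to CD14, chromosome 3, 154786214 to 154813464) was the gene with the greatest difference between the diets in total RNA. It measured 40.4 FPKM in CD and 75.9 FPKM in WD, on 103 and 185 fragments, a ratio of 1.88 (1.47 to 2.41). In the heavy fraction it measured 79.6 FPKM in CD and 124 FPKM in WD, on 129 and 206 fragments, a ratio of 1.56 (1.24 to 1.96). Lbp was thus higher in WD in both kinds of RNA. In the light fraction the values were 20.1 FPKM (35 fragments) and 16.4 FPKM (62 fragments), a ratio of 0.815 whose interval of 0.530 to 1.27 includes 1. The bounds that the authors' software gave were far wider, from 9.57 to 71.3 FPKM in CD and from 14.4 to 137 FPKM in WD total RNA.

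Orm1 (chromosome 5, 79179416 to 79182820) measured 281 FPKM in CD and 232 FPKM in WD total RNA, 214 and 144 FPKM in the light fraction, and 310.4 and 201 FPKM in the heavy fraction. It was lower in WD in each kind of RNA, with ratios of 0.827 (0.686 to 0.996), 0.671 (0.538 to 0.841) and 0.649 (0.512 to 0.820). Between 123 and 263 fragments stood behind each of these values. Orm1 and Lbp, both induced in acute inflammation, therefore differed between the libraries in opposite directions in total and in heavy fraction RNA.

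Itih3 and Itih4 encode heavy chains of the inter-alpha-trypsin inhibitor family, proteins that bind hyaluronan or circulate as proteinase inhibitor relatives, and their loci on chromosome 16 (6992061 to 7007287 and 6970341 to 6985579) are 6482 bases apart. Itih3 measured 343 FPKM in both CD and WD total RNA, 95.6 and 301 FPKM in the light fraction, and 396 and 443 FPKM in the heavy fraction. The light fraction ratio of 3.14 was the highest WD to CD ratio among the 9 genes in the 3 kinds of RNA, and 90.7% of loci lay lower. Itih3 was 1.16% of the acute-phase sum in the CD light and 3.64% in the WD light fraction. Itih4 measured 949 and 1082 FPKM in total RNA, 484 and 433 FPKM in the light fraction, and 1198 and 1573 FPKM in the heavy fraction, where its ratio was 1.31. No fragment numbers were found for either gene, so their ratios have no counting interval. Itih1 and Itih2 of the same family and Ambp, the precursor of its bikunin chain, were looked at after their values were seen. In the light fraction they went from 159 to 207 FPKM, from 113 to 151 FPKM and from 509 to 880.3 FPKM, and the ratio was below that of Itih3 in all 3.

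A2m (chromosome 4, 154309425 to 154359137) was listed at 0 in 5 of the 6 libraries. In the WD light fraction it had 0.135 FPKM, and the relative upper bound of this value, 3.54, was the one most often found in that library, at 884 loci, as for a single fragment. Other genes of secreted liver proteins, such as Mbl2, were also listed at 0 in all 6 libraries, so a 0 is a listed value only.

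Sequences upstream of these genes are shown because STAT3 and the C/EBP factors are among the transcription factors through which interleukin-6 and interleukin-1 are known to act on acute-phase genes. Of the 10 genes, 7 were matched by symbol to RefSeq promoters of the build GRCr8, from 250 bases before to 50 after the start site. Both strands were searched for the STAT motif TTCNNNGAA and the C/EBP motif TTGCNNAA, where N is any base, and for a consensus motif each of NF-kappaB and HNF1. The C/EBP letters were found in 4 of the 7 and in 10.5% of 27457 promoters, and the STAT letters in 1 of the 7 and in 8.68% of promoters. The NF-kappaB and HNF1 motifs, held by 0.371% and 0.00364% of promoters, were in none of the 7. In the windows below, given 5′ to 3′ on the strand of the gene, capitals mark the match, and no match overlapped another. In Orm1 and Cp the C/EBP match lies on the opposite strand, so there the capitals are the reverse complement of the motif.
Itih4, STAT, GRCr8 chr16:6086888-6086913, plus strand: acctgcatTTCCCAGAActtgcacca
Itih4, C/EBP, GRCr8 chr16:6086744-6086769, plus strand: ggacctagcTTGCAGAAggtctgcta
Orm1, C/EBP, GRCr8 chr5:81788377-81788402, plus strand: gggaacattTTGTGCAAgacatttcc
Cp, C/EBP, GRCr8 chr2:104368589-104368614, plus strand: tatttactcTTGTGCAAcattaaatt
Hpx, C/EBP, GRCr8 chr1:169352339-169352364, minus strand: gctggaaatTTGCTGAAgggggtagg
The STAT match of Itih4 began 89 bases and the C/EBP matches began between 72 (Cp) and 232 (Itih4) bases before the start site. The 4 genes with a C/EBP match included both the gene lower in WD in every kind of RNA, Orm1, and genes with ratios near 1, such as Hpx. Whether a match went along with the ratio between diets was not tested, and Lbp was not among the 7 promoters.

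Whether the diet went along with a different abundance of these mRNAs was asked of total RNA. Ratios of at least 1.5 and of at most 0.75 were counted, limits that the study set for ribosome density in CD over WD and that are used here for WD over CD. All 9 genes averaged above 10 FPKM, so shares are also given for the 4069 loci that did. Of the 9 genes, 1 (Lbp) passed the upper limit in total RNA, against 17.7% of all loci compared and 8.77% of the more abundant loci, and 0 passed the lower limit, against 22.7% and 16.2%. The other 8 lay between 0.827 (Orm1) and 1.19 (Apcs), and the median log2 ratio was -0.0011, beside 0.022 over all loci. In the light fraction 1 gene (Itih3) passed the upper limit, against 25.9% of loci and 17.1% of the more abundant ones, and 3 (Crp, Apcs and Orm1) passed the lower, against 26.8% and 27.2%. In the heavy fraction 1 (Lbp) passed the upper limit, against 21.7% and 13.3%, and 1 (Orm1) the lower, against 25.8% and 19.2%. A single gene of 9 is close to or below these shares. The light fraction values depended on scaling: with equal library sums the median over all loci moved from 0.017 to -0.29, and 5 of the 9 genes passed the lower limit. In the light fraction red cell markers had a summed level of 105 FPKM over 5 genes in CD and 543 FPKM in WD. The 4 globin genes were higher in the WD light fraction, whereas Alas2, of haem synthesis, measured 19.7 FPKM in CD and 7.18 FPKM in WD. The part of red cell RNA in the light fraction values was not tested.

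**Figure D2:**
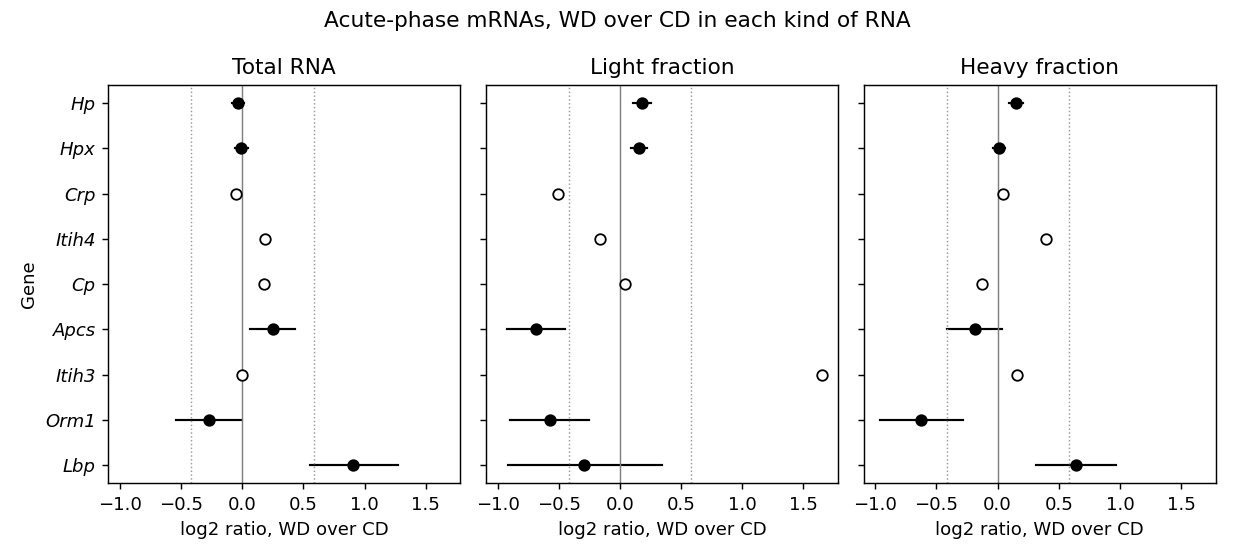
The log2 ratio of WD over CD for 9 acute-phase genes in total RNA, the light fraction and the heavy fraction. Filled points have a 95% interval (line) from inferred fragments, which covers counting error only, open points have none, and dotted lines mark ratios of 0.75 and 1.5. Lbp lies past the upper dotted line in total RNA and in the heavy fraction, at log2 values of 0.91 and 0.64, and Itih3 lies past it in the light fraction, at a log2 value of 1.65.

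The heavy to light ratio asks how much of an mRNA stood with 4 or more ribosomes. Since FPKM values are scaled to sequenced fragments and normalized between libraries, a ratio of 1 does not mean equal amounts of RNA in both fractions. The ratios are therefore read against those of all loci. All 9 acute-phase mRNAs were higher in the heavy than in the light fraction in CD and in WD, as were 50.2% and 48.5% of the loci compared. The median ratio of the 9 was 2.48 in CD, beside 1.01 over all loci, and 2.39 in WD, beside 1. At least 1.5-fold higher in the heavy fraction were 7 of the 9 in CD, against 32.9% of loci and 34.9% of the more abundant ones. In WD they were again 7 of the 9, against 31.4% and 37.1%. The lower limit was passed by 0 of the 9 in either diet, against 36.6% of loci in CD (31.9% of the more abundant) and 38.5% in WD (32.1%). Below 1.5 were Apcs at 1.498 and Orm1 at 1.45 in CD, and Itih3 at 1.47 and Orm1 at 1.40 in WD. The highest were Itih3 at 4.14 and Lbp at 3.96 (2.71 to 5.93) in CD, and Lbp at 7.57 (5.68 to 10.2) in WD, above 98.1% of loci. The 6 hepatocyte markers, most of which are secreted as well, were all above 1 in CD, with a median log2 ratio of 1.36, and the 26 other positive acute-phase genes measured had a median of 1.06. A high heavy to light ratio was thus shared with other liver mRNAs. Relative to total RNA, whose reads may have been aligned in another way than those of the fractions, the heavy fraction was higher for all 9 genes in CD and for 6 in WD, and it was highest for Crp, at 2.71-fold in CD and 2.90-fold in WD.

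**Figure D3:**
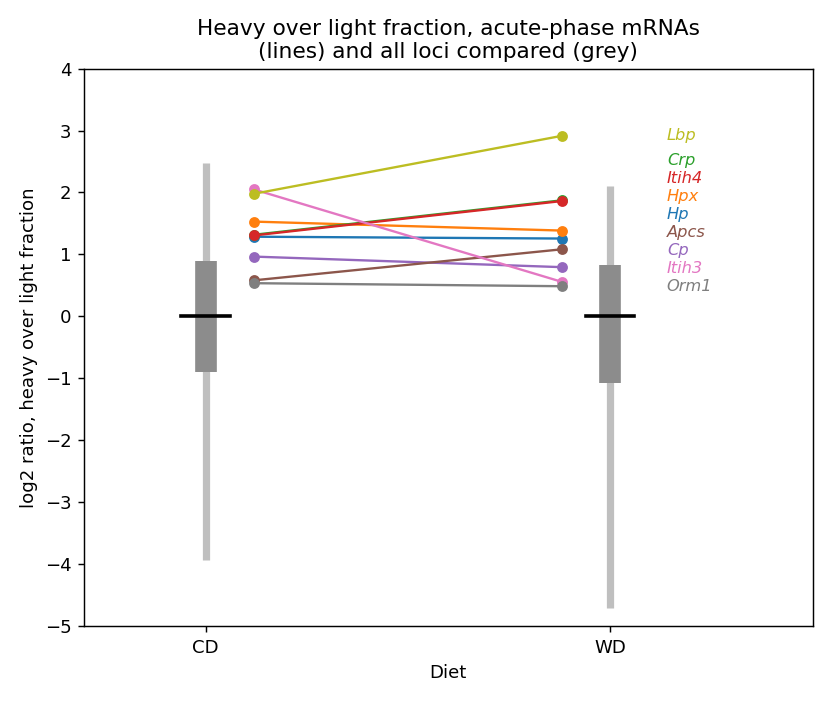
The log2 ratio of the heavy over the light fraction in CD and in WD for 9 acute-phase genes (points joined by lines, each point from a pair of libraries). Thick grey bars span the quartiles and thin bars the 5th to 95th percentile of the 10201 loci compared, with the median in black. All 9 genes lie above 0 in both diets, and the lines of Lbp and Itih3 are the steepest.

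Ribosome density, the heavy to light ratio, was then compared between the diets. Lbp had a density 1.91-fold higher in WD than in CD (1.16 to 3.13), on 35 (light) and 129 (heavy) fragments for CD and 62 (light) and 206 (heavy) fragments for WD. It was the 1 gene of 9 past the upper limit, against 27.7% of loci and 23.3% of the more abundant ones. Itih3 had a ratio of 0.356 and was the 1 gene past the lower limit, against 36.1% and 27.6%. For Itih3 the WD to CD ratio was 1.12 in the heavy and 3.14 in the light fraction. With total RNA as the denominator both changes turned in direction, to log2 values of -0.27 for Lbp and 0.16 for Itih3, and no gene passed the upper limit. Crp at 1.47, Itih4 at 1.47 and Apcs at 1.41 (1.12 to 1.78) lay just under the upper limit. With the limits set on CD over WD, as the study did, these 3 and Lbp, or 4 of the 9, had a higher density in WD, against 32.9% of loci, and Itih3 alone a lower one, against 30.9%. Apcs, like Lbp, turned with total RNA as the denominator, to a ratio of 0.739 (log2 -0.44), and was then the 1 gene past the lower limit. Crp at 1.07 and Itih4 at 1.15 stayed above 1 on that measure. Hp at 0.980 (0.917 to 1.05), Orm1 at 0.967 (0.697 to 1.34), Hpx at 0.905 (0.853 to 0.960) and Cp at 0.889 were close to 1. With equal library sums all 4 lay above 1, at log2 values of 0.30, 0.28, 0.18 and 0.16, but the median over all loci was then 0.28. The intervals of Hp and Hpx, the most deeply sequenced of the genes, leave out a difference of 1.5-fold in these libraries. The median log2 change of the 9 was -0.030, beside -0.021 over all loci.

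Other genes of the acute-phase response were taken from lists assembled from general knowledge. Of 34 other positive acute-phase genes 28 were found and 26 averaged 1 FPKM or more. Of the 26, 25 averaged 10 FPKM or more. In total RNA 3 of the 26 passed the upper limit, beside 17.7% of all loci and 8.77% of the more abundant loci. The lower limit was passed by 0, beside 22.7% and 16.2%. The highest of those that averaged 10 FPKM or more were Mt1 (metallothionein, a metal-binding protein), at 41.9 FPKM in CD and 92.5 FPKM in WD on 9 and 19 fragments (ratio 2.2, 0.952 to 5.54), and Cd14, the lipopolysaccharide co-receptor that receives its ligand from Lbp. Cd14 measured 7.59 FPKM in CD and 16.5 FPKM in WD on 13 and 27 fragments, a ratio of 2.16 (1.08 to 4.58). The third was Lcn2 (lipocalin 2), listed at 0 in CD and at 2.66 FPKM in WD total RNA. In the heavy fraction Lcn2 went the other way, at 4.00 FPKM in CD and 0 in WD, and in the light fraction it was listed at 0 and 0.855 FPKM. The lowest were Mt2A at 0.837 (0.166 to 3.89) and Serpina3m at 0.846 (0.686 to 1.04), the latter a serine proteinase inhibitor. In ribosome density the highest were Cd14 at 4.66 (1.31 to 17.8) and Fgg, the fibrinogen gamma chain, at 2.24 (2.02 to 2.47). The light fraction of Fgg was 1064 FPKM in CD and 516 FPKM in WD. Its heavy fraction was 2517 and 2732 FPKM, beside 2121 and 2318 FPKM in total RNA. Cd14 had 12 (CD) and 8 (WD) fragments in the light fraction and 12 and 18 in the heavy fraction. Its heavy fraction, at 11.0 and 16.1 FPKM, lay above total RNA in CD but below it in WD. The lowest were Mt2A, listed at 0 in the WD heavy fraction, and Lifr, a cytokine receptor subunit, at 0.599 (0.338 to 1.05).

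Of 14 negative acute-phase genes 13 were measured, and 12 of these averaged 10 FPKM or more. In total RNA 0 passed the upper limit, beside 17.7% of all loci and 8.77% of the more abundant loci. The lower limit was passed by 3, beside 22.7% and 16.2%. The median log2 ratio was -0.12, beside 0.022 over all loci. The lowest of the more abundant were Apoa1, the main apolipoprotein of high-density lipoprotein, at 366 FPKM in CD and 266 FPKM in WD (ratio 0.726, 0.603 to 0.873), and Ttr (transthyretin, a thyroid hormone carrier) at 11472 and 8558 FPKM (0.746, 0.718 to 0.775). The third was Serpina7, at 2.17 and 0.568 FPKM. The highest were Gc, the vitamin D carrier, at 1.13 and Serpina6, the corticosteroid carrier, at 1.13 (1.01 to 1.25). In ribosome density Apoa1 at 0.349 (0.273 to 0.446) and Ahsg (fetuin-A) at 0.497 were lowest. Rbp4, the retinol carrier, at 1.81 (1.70 to 1.92) and Ttr at 1.41 (1.32 to 1.5) were highest. In the light fraction Apoa1 measured 246 FPKM in CD and 626 FPKM in WD, and Ahsg 1200 and 2402 FPKM. In the heavy fraction Apoa1 measured 705 and 628 FPKM, and Ahsg 4213 and 4189.5 FPKM. With total RNA as the denominator the change of Apoa1 turned in direction. The light fraction was lower in WD for Rbp4 (7130 and 3772 FPKM) and Ttr (7852 and 4421 FPKM).

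The receptors and transcription factors through which cytokines induce these genes ranged widely in level, up to 366 FPKM in CD and 421 FPKM in WD total RNA for Hnf4a, a hepatocyte transcription factor. Of 23 listed 21 averaged 1 FPKM or more, and in total RNA 1 passed the upper and 4 the lower limit, beside 17.7% and 22.7% of all loci. Stat3 measured 19.0 FPKM in CD and 17.3 FPKM in WD, and the interleukin-6 receptor genes Il6r and Il6st measured 16.3 and 15.6 FPKM and 70.0 and 71.3 FPKM. Socs3, the feedback inhibitor of STAT3 signalling, had 2 fragments in CD total RNA and was listed at 0 in WD. Myd88, the adaptor of Toll-like and interleukin-1 receptors, measured 14.0 and 6.48 FPKM on 36 and 16 fragments (0.468, 0.241 to 0.859), and Il1rap, the co-receptor for interleukin-1, measured 6.12 and 12.8 FPKM on 13 and 26 fragments (2.07, 1.04 to 4.43). The interleukin-1 receptor gene Il1r1 went the other way from Il1rap, at 31.6 FPKM in CD and 17.5 FPKM in WD, past the lower limit. Nfkb1 had a ratio of 1.47 (0.932 to 2.36). In ribosome density Cebpd and Socs3 were lowest, each with 4 or fewer fragments per library, and Il1r1 at 1.90 and Pias3 at 1.59 (0.0890 to 121) were highest. Markers of Kupffer cells and macrophages, which also express Cd14 and Myd88, summed over 9 genes to 111 FPKM in CD and 138 FPKM in WD total RNA. Of the 9 markers, 4 passed the upper and 1 the lower limit, beside 17.7% and 22.7% of all loci, and their part in these values was not tested. In liver pools, more cells of a type and more RNA per cell cannot be told apart.

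**Figure D4:**
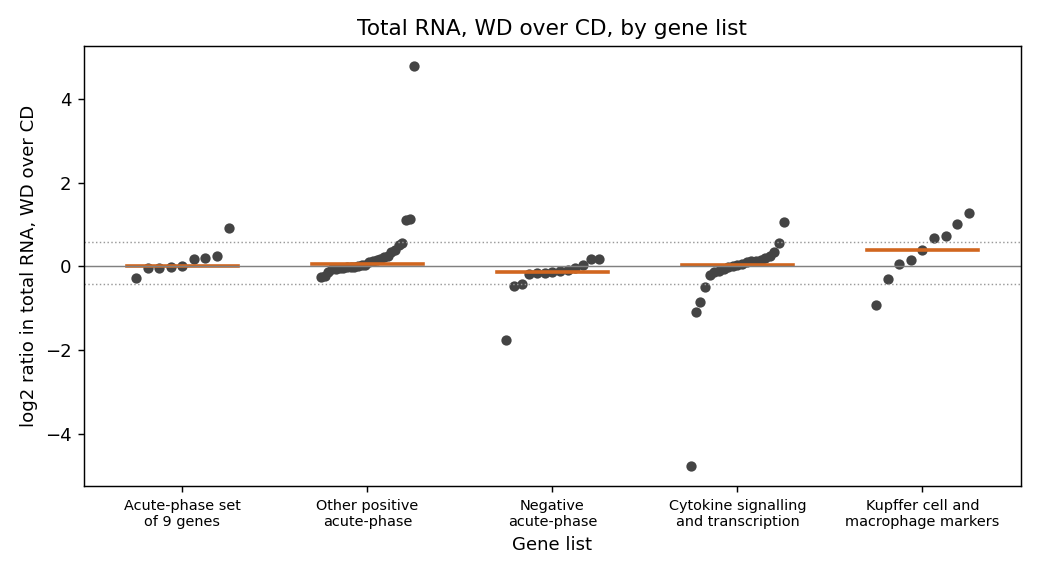
The log2 ratio of WD over CD in total RNA for each gene that averaged 1 FPKM or more, by list, in rank order within a list. Each point is a gene measured in 1 library per diet, orange bars are list medians, and dotted lines mark ratios of 0.75 and 1.5. The acute-phase set lies around 0 apart from Lbp at 0.91, and points beyond 4 on either side are Lcn2 and Socs3, listed at 0 in 1 diet.

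The mean profile of the 9 acute-phase genes over the 6 libraries was low in the light fraction and high in the heavy fraction in both diets, with exceptions in WD. On the log2 scale, centred for each gene, it was 0.091 (CD) and 0.22 (WD) in total RNA, -0.73 and -0.75 in the light fraction and 0.56 and 0.61 in the heavy fraction. Orm1 was below its own mean in the WD heavy fraction, at -0.15, and Itih3 above its own mean in the WD light fraction, at 0.052. Among the 4069 more abundant loci, the nearest to this profile by root mean square distance over 6 libraries were Pzp at 0.070, an alpha-macroglobulin like A2m, followed by Sec31a at 0.093, a coat protein of vesicles that leave the endoplasmic reticulum, Anpep at 0.094, a membrane aminopeptidase, Insr at 0.096, the insulin receptor, and C1s at 0.10, a complement protease. The median distance of the ranked loci was 0.68. Of the acute-phase genes themselves Hpx at 0.15, Hp at 0.15 and Itih4 at 0.16 lay closest to their mean profile, and Lbp at 0.55, Itih3 at 0.49 and Crp at 0.47 lay farthest.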

How the data were processed

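RNA of 3 rats per diet was pooled, depleted of ribosomal RNA and sequenced as 6 libraries. The authors aligned reads to Rnor_6.0 with TopHat, quantified them with the Cufflinks pipeline and deposited FPKM values per locus, normalized between libraries, with a lower and an upper bound for each. The methods also describe a separate route for ribosome profiling, which drops ribosomal RNA reads and keeps perfect matches, and whether the gradient libraries took it is not stated, so ratios of a fraction to total RNA may compare different alignments. The annotation is not given in the sources used here, and the start of a locus is printed as deposited. Samples were grouped by diet and fraction from their titles. Log2 ratios were computed after adding 0.1 FPKM, over the 10201 named loci whose estimate succeeded and that averaged 1 FPKM or more, with scipy 1.17.1, numpy 2.4.6 and pandas 2.3.3 under Python 3.11.15, and plotted with matplotlib 3.10.9. Printed ratios of the 9 genes are of deposited FPKM. Where a symbol was repeated, the locus with the highest mean was used. No test of diet was made, since each group has 1 library.

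Fragment numbers are the smallest whole numbers, within 0.02 and up to 10000, that explain a locus' FPKM given the worth of 1 fragment in each library. They are estimates, since any multiple explains the FPKM equally well. The scripts were tested on simulated data. The genes and lists were chosen with earlier results of these data known. Named genes of other lists are the 2 highest and 2 lowest in total RNA and in ribosome density, with a mean of at least 10 FPKM (1 FPKM for signalling genes), and others named were chosen after their values were seen. The 5 nearest profiles were named by distance. Alternatives were pseudocounts of 1 and 0.01 FPKM, rescaling to the same sum, centring, a mean of at least 10 FPKM, no filter, summing repeated symbols, and the heavy fraction over total RNA. The limits set on CD over WD were added after seeing the data.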

Additional observations from a re-analysis of the deposited data

Results flagged for a closer look

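For 4 of the 9 genes the WD to CD ratio lay on opposite sides of 1 in the light and the heavy fraction. The share of all loci for which this held was not counted, so the number says nothing particular about these genes. It also depended on scaling. With equal library sums the log2 ratios of Cp lay on the same side, at -0.31 (light) and -0.15 (heavy). Those of Hp then lay on opposite sides, at -0.17 and 0.13. The values below are without that rescaling. The difference between both log2 ratios, heavy minus light, was 0.93 for Lbp, 0.56 for Crp, 0.55 for Itih4 and -0.17 for Cp. With 1 library per group these differences between fractions were not tested. For Lbp the counting interval of the ratio lay above 1, at 1.16 to 3.13, and no counting interval could be had for Crp, Itih4 and Cp.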

How the results depend on the processing

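No paired analysis was possible because each group has 1 pooled library, and for the same reason no replicate could be left out. Of 131 medians and counts recomputed under 9 alternatives, 122 stayed within their limits. A median did so if it moved by no more than the median counting error of single genes, and a count if it changed no more than 1.5-fold. Summing repeated symbols and the mean of at least 10 FPKM could not change these values or those of single genes. Each of the genes stood on 1 locus, and all 9 averaged above 10 FPKM, so these settings say nothing about stability. With the limits of 1.5 and 0.75 on CD over WD, an alternative chosen after seeing the data, 4 genes had a higher ribosome density in WD. With equal library sums the median log2 ratio of WD over CD in the light fraction was -0.51, with 5 genes at a ratio of at most 0.75. That of heavy over light in WD was 1.57, with 9 genes instead of 7 at a ratio of at least 1.5. In that setting 4 genes had a ribosome density at least 1.5-fold higher in WD. The median log2 ratio over all loci moved as well with equal library sums. It became -0.29 for WD over CD in the light fraction, 0.26 for heavy over light in WD and 0.28 for ribosome density. The shares of all loci past the limits were not counted in that setting. With no filter A2m entered, which rests on 1 fragment in the WD light fraction, and the counts became 2 genes at least 1.5-fold higher in the light fraction, 1 gene at a ratio of at most 0.75 in heavy over light in WD and 2 such genes in ribosome density. With the heavy fraction over total RNA, 0 genes were at least 1.5-fold higher in WD, the changes of Lbp and Itih3 turned to -0.27 and 0.16, and that of Apcs turned from 0.50 to -0.44, which made it the 1 gene past the lower limit in place of Itih3. Of 387 log2 values of single genes, 17 took the opposite sign, 12 with equal library sums and 5 with total RNA as the denominator, and among these Lbp and Itih3 had been past a limit. The cause of these differences was not tested. Among the 5 genes with fragment numbers, depth limits Lbp most, with 35 fragments in the CD light fraction.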
